A study of Danio rerio with 2 samples.

Results

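The claudins described here are the 38 genes of 26126 listed whose name in the authors' comparison table begins with cldn in either case. All 38 had at least 10 counts over both libraries, the minimum used for a measured gene, as did 24009 of all genes. Of the 38, 36 are named as claudins and 2 as CLDND1, claudin domain containing 1, a gene of a related protein; 8 names mark numbered copies, such as CLDN4 (5 of 9). Transcripts of copies that share sequence may exchange reads, so the values of single copies are uncertain.

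Claudins are the membrane proteins that form the strands of tight junctions, the seals between neighbouring epithelial or endothelial cells. Each spans the membrane several times, and its outer loops meet those of claudins on the next cell. Some members close the space between cells, others form channels that let chosen ions or water pass, and the mixture made by a tissue sets how leaky it is. Zebrafish have a large claudin family, with lettered genes, many of them expanded in fish, beside numbered genes named after mammalian ones.

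Hearts were taken from zebrafish of the AB background at 48 hours post fertilization. There was 1 library from kctd10 -/- mutants and 1 from wild-type animals, and neither the mutant allele nor the number of hearts pooled is stated in the labels. kctd10 encodes an adaptor of the Cullin 3 ubiquitin ligase. The comparison asks how transcript amounts differ between hearts of both genotypes.

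Depth was similar, with 139099775 counts over genes in the library labelled mutant and 150001992 in that labelled wild type. Transcripts of kctd10 itself, the mutated gene, gave 19942 counts in the library labelled mutant, against 8226 in the one labelled wild type, a ratio of 2.57 (95% counting interval 2.5 to 2.64). A mutation need not lower the amount of messenger RNA, so this does not check the labels, and directions below follow the libraries as labelled. Beside a value, mutant and wild type stand for the libraries so labelled. Markers of the labelled tissue were present: the summed level of 32 cardiac sarcomere genes was 18069 CPM (counts per 1000000 after scaling) in the library labelled mutant and 12965 CPM in the one labelled wild type. Markers of tissues other than heart were counted too, the 24 measured larval skin genes summing to 37539 CPM (mutant) and 51734 CPM (wild type) and the 39 skeletal muscle genes to 1995 CPM (mutant) and 5089 CPM (wild type). Which cells the claudin counts came from was not measured, and in such bulk samples fewer cells of a type and less RNA per cell cannot be told apart.

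Each genotype has 1 library, so there is no replicate check and no test between genotypes. The authors' p-values and adjusted p-values from DESeq, given below, rest on the same 2 libraries. They therefore hold no measured spread between libraries of a genotype. Every ratio below divides the scaled level in the library labelled mutant by that in the other, and its 95% interval covers counting error only. Reads copied by PCR are not independent molecules, which such intervals leave out. A gene is called higher where the whole interval lies above 1.5-fold, and lower where it lies below the inverse of 1.5.

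Most claudins, like most of all measured genes, were called neither higher nor lower. Of 38, 1 was called higher, CLDN18, against 6.03% of all measured genes, and 5 were called lower, cldnb, cldn15la, cldn15a, cldn10l2 and cldn17, which is 13.2% of the claudins against 6.66% of all measured genes. The other 32 met neither condition, with ratios between 0.592 and 1.53. The median log2 ratio of the 38 was −0.11, beside 0.00084 for all measured genes, and it turned to 0.022 and 0.071 when the libraries were scaled on the larval skin or general epithelial genes. Scaling on those lists raises every log2 ratio by 0.13 and 0.18, scaling on cardiac sarcomere genes lowers every one by 0.45, and each leaves the claudin median 0.11 below that of all genes. On the sarcomere scale 1 claudin was higher, beside 2.47% of all measured genes, and 11 were lower, beside 22.6%. Of all genes called, 9.83% were higher on that scale, against 47.5% here. Ratios below 1 were found for 25 claudins (65.8%), against 49.9% of all measured genes.

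Counted by direction alone, the interval lay wholly above 1 for 5 claudins (13.2%) and for 34.1% of all measured genes. It lay wholly below 1 for 16 claudins (42.1%) and likewise for 34.1% of all measured genes. The 5 above 1 were CLDN18, cldn5a, cldn12, cldn11b and cldnh. The interval included 1 for the other 17 claudins, at the precision their counts allow. That precision ran from 0.022 to 0.17 on the log2 scale (interval half-width) for the 19 genes with at least 1000 counts, and from 0.70 to 1.3 for the 7 under 100 counts.

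**Figure D1:**
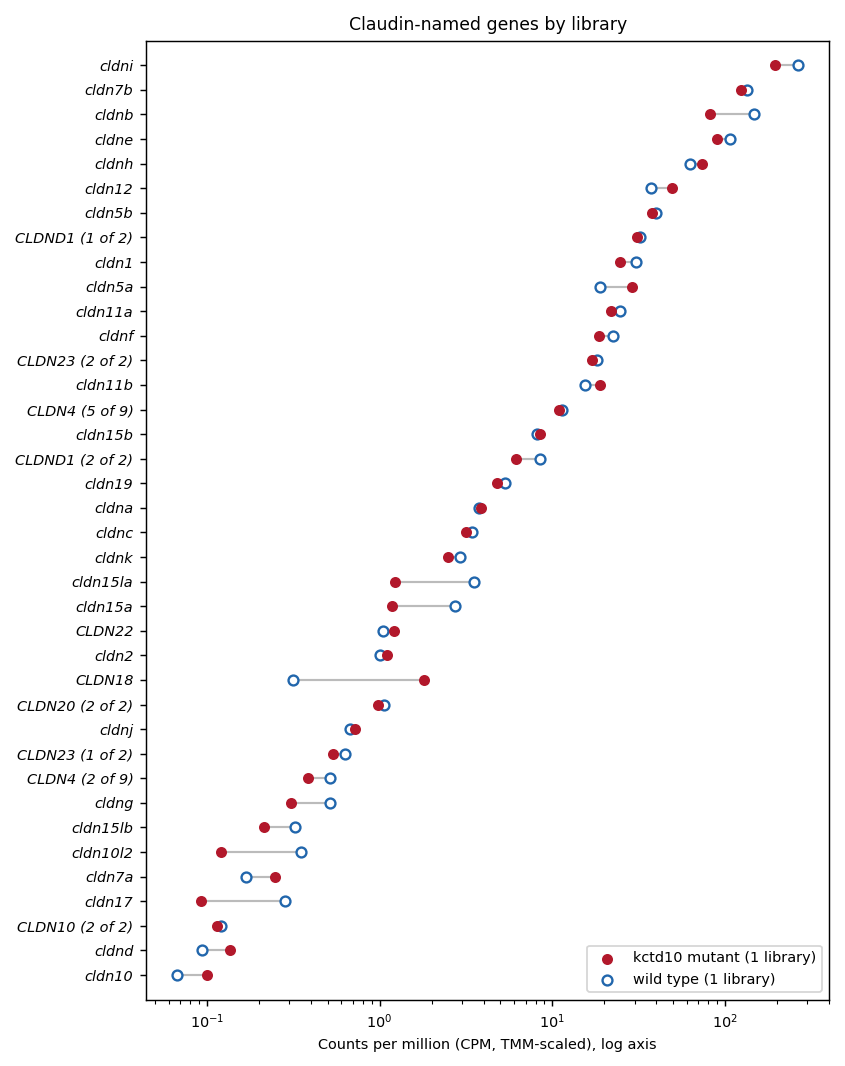
Level of each of the 38 claudin-named genes in CPM (counts per 1000000 after scaling, log axis), filled points for the library labelled kctd10 mutant and open points for the library labelled wild type, 1 library each, ordered by summed counts. Most pairs of points nearly touch, and CLDN18, cldn15la, cldn15a, cldn10l2 and cldn17 have the widest gaps.

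Claudins together took 0.0871% of gene counts in the library labelled mutant and 0.101% in the library labelled wild type. Their summed level was 863 CPM (mutant) against 1014 CPM (wild type), a ratio of 0.851, which a few abundantly counted genes set. The 5 most counted claudins, cldni, cldn7b, cldnb, cldne and cldnh, held 65.4% of claudin counts in the library labelled mutant and 70.8% in that labelled wild type. Counts were not divided by transcript length, so their order is not an order of transcript abundance.

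The most counted claudin was cldni (ENSDARG00000054616), a gene of the zebrafish epidermis. It had 27503 counts (196 CPM) in the library labelled mutant and 39531 counts (266 CPM) in the library labelled wild type. Its ratio of 0.737 (0.726 to 0.748) lay below 1 but inside the 1.5-fold limit. Of all claudin counts it took 22.7% in the library labelled mutant (exact binomial interval 22.5 to 22.9) and 26.2% in that labelled wild type (25.99 to 26.4).

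Among the 19 claudins with at least 1000 counts only cldnb (ENSDARG00000009544) was called, as lower. That is 5.26% lower, beside 5.54% of all genes with at least 1000 counts, and 0 higher, beside 5.40%. The gene cldnb marks the migrating lateral line primordium and the skin of the zebrafish embryo. It had 11551 counts (82.3 CPM) in the library labelled mutant and 21966 counts (148 CPM) in the library labelled wild type. The ratio was 0.557 (0.545 to 0.570), that is 1.80-fold lower (1.76 to 1.84). Its share of claudin counts was 9.53% (9.37 to 9.70) in the library labelled mutant, against 14.6% (14.4 to 14.7) in that labelled wild type, a difference that no library scaling can alter. Without cldnb, the ratio of the summed claudin level was 0.901. In the authors' deposited table for Ensembl genes, cldnb has a fold of 0.555, a p-value of 0.0315 and an adjusted p-value of 0.66 from DESeq. Their deposited table of UniGene clusters lists 0.56 for it, under a column named OE over CON.

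Summed levels of skin and epithelial genes were also below those of the library labelled wild type, and their part in the ratio of cldnb was not tested. Of 24 measured larval skin genes 1 was called higher (4.17%) and 3 lower (12.5%), beside 6.03% and 6.66% of all measured genes. Their median log2 ratio was −0.13, and the ratio of their summed level was 0.726. krt4, a keratin of the surface epithelium, had 21200 CPM in the library labelled mutant and 30271 CPM in the library labelled wild type, a ratio of 0.700. Most of the list's summed level, 37539 CPM (mutant) and 51734 CPM (wild type), was krt4, so the ratio of the sum largely follows it. The 3 lower skin genes were zgc:136930 (0.323) and the keratin genes krt15 (0.443) and krt5 (0.552), and the higher one was krt94 (1.73). Ratios above 1 were found for 9 of the 24, among them the keratin gene krt8 (1.26). The 33 general epithelial genes had a summed level of 3012 CPM (mutant) against 3522 CPM (wild type). Of them 0 were higher (beside 6.03% of all measured genes) and 3 lower (9.09%, beside 6.66%). The 3 were elf3 (ratio 0.290), tfap2c (0.507) and tfap2a (0.554), which encode transcription factors. The most counted gene of that list, ppl, encoding the plaque protein periplakin, had a ratio of 0.731. The adhesion gene epcam had a ratio of 0.793 and cdh1, encoding E-cadherin, one of 0.960. The ratio of cldnb lay below those of krt4, epcam and cdh1, above those of elf3 and krt15, and near that of krt5 (0.549 to 0.555). The 17 ionocyte genes, which mark the ion-transporting cells of the skin, had a median log2 ratio of −0.50, with ratios below 1 for 16. Summed levels of the 17 were 559 CPM (mutant) and 726 CPM (wild type). Of them 0 were higher (beside 6.03% of all measured genes) and 3 lower (17.6%, beside 6.66%). The 3 were gcm2 (0.542), foxi3a (0.591) and the sodium pump gene atp1a1a.2 (0.653), the most counted of them.

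Other skin and surface claudins lay nearer to 1. cldne, expressed in the outer layer of the early zebrafish embryo, had 12536 counts (89.3 CPM) in the library labelled mutant and 15937 (107 CPM) in that labelled wild type. Its ratio of 0.833 (0.814 to 0.853) was near that of cldnf, at 0.826 (0.785 to 0.870), with 2619 (mutant) and 3357 (wild type) counts. cldn1, whose mouse counterpart is needed for the water barrier of the skin, had 3439 (mutant) and 4561 (wild type) counts, with a ratio of 0.799 (0.764 to 0.835). All 3 were modestly lower, none by 1.5-fold. cldn7b, counterpart of a mammalian claudin of gut and kidney epithelia, had 17405 (mutant) and 20012 (wild type) counts and a ratio of 0.921 (0.903 to 0.940). cldna, with 543 (mutant) and 558 (wild type) counts, had a ratio of 1.03 (0.914 to 1.16).

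Relative to one another these genes differed in a way that does not depend on scaling. The ratio of cldnb was 0.756 times that of cldni (0.735 to 0.777), 0.669 times that of cldne (0.647 to 0.691) and 0.605 times that of cldn7b (0.587 to 0.623). The ratios of cldnf and cldne, by contrast, differed by a factor of 0.992, with an interval from 0.938 to 1.05. These intervals compare reads of 2 libraries, not genotypes.

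**Figure D2:**
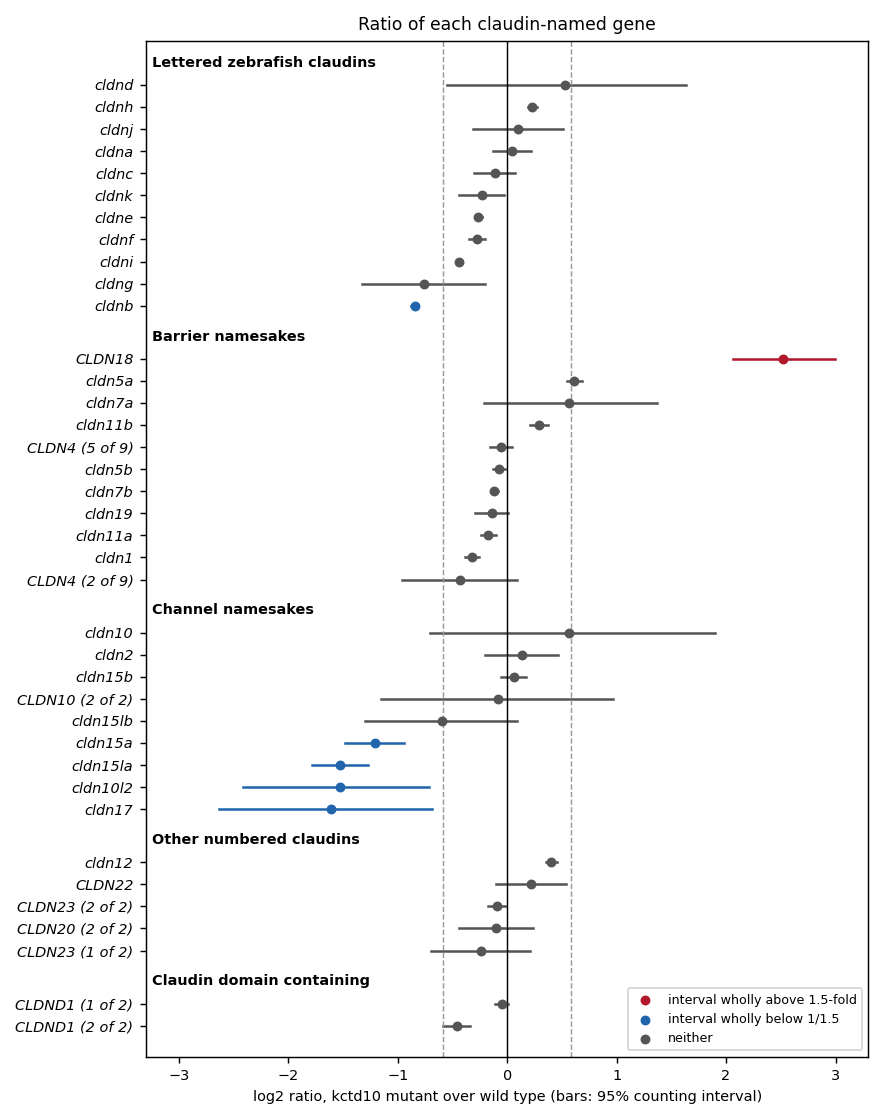
Ratio of each claudin-named gene on a log2 axis, library labelled kctd10 mutant over library labelled wild type, with bars for the 95% counting interval and dashed lines at 1.5-fold either way, grouped by name and ordered by ratio. The 5 blue genes lie wholly below the lower line and the red CLDN18 wholly above the upper one. By the authors' names 4 of the 5 blue genes stand under channel namesakes, among them cldn17, now called cldn8.3.

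The remaining genes called lower have few counts and bear the numbers of mammalian claudins that form channels (2, 10, 15, 16 and 17). Of 9 genes with such names 4 were lower (44.4%, beside 6.66% of all measured genes) and 0 higher (beside 6.03%). Their median log2 ratio was −0.59. These names are not a check of function, since RefSeq now calls cldn17 cldn8.3, beside the barrier-type claudin 8 genes. Grouping by the authors' names also leaves out genes now called cldn10d (ratio 3.53, 1.37 to 10.7) and cldn10e (1.18, 0.591 to 2.36). Neither was called. The 9 held 1778 counts in the library labelled mutant and 2469 in the library labelled wild type, so they are a small part of the claudin transcripts. Over all genes with fewer than 1000 counts, 8.43% were lower.

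cldn15la (ENSDARG00000016081) is used as a reporter gene of the zebrafish intestinal epithelium. It had 173 counts (1.23 CPM) in the library labelled mutant and 527 counts (3.54 CPM) in the library labelled wild type. The ratio was 0.348 (0.291 to 0.414), 2.88-fold lower (2.42 to 3.43), and its whole interval also lay beyond 2-fold, as that of no other lower claudin did. The authors' deposited table gives a fold of 0.347 with an adjusted p-value of 0.288, and their deposited table of UniGene clusters lists 0.35.

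cldn15a (ENSDARG00000036463), needed for a single lumen to form in the zebrafish gut, went the same way. It had 166 counts (1.18 CPM) in the library labelled mutant and 407 counts (2.74 CPM) in that labelled wild type. The ratio was 0.432 (0.359 to 0.519), with 0.431 in the authors' deposited table and 0.43 for its UniGene cluster. The authors' adjusted p-value from DESeq is larger for cldn15a than for cldnb or cldn15la. In both gut claudins the scaled level was lower by more than the 1.5-fold limit. Their named partners lay nearer to 1. cldn15b had 1195 (mutant) and 1216 (wild type) counts, giving 1.04 (0.960 to 1.13), and the ratio of cldn15a was 0.415 times that of cldn15b (0.341 to 0.506). cldn15lb had 30 (mutant) and 48 (wild type) counts and a ratio of 0.662 (0.405 to 1.07), and the ratio of cldn15la was 0.525 times its ratio (0.315 to 0.888).

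Genes of the gut and liver list, which also holds pancreas genes, lay on both sides of 1. Of 22 measured 6 were higher (27.3%) and 4 lower (18.2%), beside 6.03% and 6.66% of all measured genes. The 4 lower included the pancreatic hormone genes gcga (0.371) and ins (0.454). Their summed level was 7779 CPM in the library labelled mutant and 3897 CPM in that labelled wild type. The apolipoprotein gene apobb, expressed in liver and yolk, alone had 3040 CPM (mutant) and 1110 CPM (wild type) (ratio 2.74). The apolipoprotein genes apoa1a, with 2493 CPM (mutant) and 1340 CPM (wild type), and apoa1b, with 1580 CPM (mutant) and 1037 CPM (wild type), came next. Most of the summed level came from these and apobb, so the sum largely follows apolipoprotein genes and is no measure of gut tissue. The intestinal regulator gene cdx1b had 54 (mutant) and 179 (wild type) counts (ratio 0.320, 0.231 to 0.435), and vil1, which encodes the brush border protein villin, had 122 (mutant) and 244 (wild type) counts (0.530, 0.423 to 0.661). fabp2, a fatty acid binding protein gene of the intestine, had 8188 (mutant) and 5835 (wild type) counts (1.49, 1.44 to 1.54). The part of gut tissue in the ratios of cldn15la and cldn15a was not tested.

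Both other genes called lower had under 100 counts in all. cldn10l2 (ENSDARG00000042550) had 17 counts in the library labelled mutant and 52 in the library labelled wild type, with a ratio of 0.346 (0.188 to 0.609). cldn17 (ENSDARG00000092338), with 13 (mutant) and 42 (wild type) counts, came to 0.328 (0.161 to 0.623). Neither passed with a 99% interval in place of 95%, nor when scaled on the general epithelial genes, and cldn17 did not pass when scaled on the larval skin genes. In the authors' deposited table both have an adjusted p-value of 1.

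For the remaining channel namesakes the interval included 1. cldn2, counterpart of a claudin of leaky mammalian epithelia such as the kidney proximal tubule, had 154 (mutant) and 149 (wild type) counts (ratio 1.09, 0.868 to 1.38). cldn10 had 14 (mutant) and 10 (wild type) counts and CLDN10 (2 of 2) had 16 (mutant) and 18 (wild type) counts. At these depths even a 1.5-fold difference of either claudin 10 gene was not detectable.

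CLDN18 (ENSDARG00000079368) was the claudin called higher, and it had the ratio farthest from 1 of all 38. In mammals claudin 18 is made mainly in lung and stomach epithelium. It had 254 counts (1.81 CPM) in the library labelled mutant, against 47 counts (0.316 CPM) in the library labelled wild type. The ratio was 5.72 (4.18 to 7.99). In the authors' deposited table its fold is 5.70 with a p-value of 0.00138 and an adjusted p-value of 0.0742. The deposited UniGene table holds a cluster titled as similar to claudin-18A2.1, whose symbol carries the RefSeq number of cldn18, with a fold of 5.53.

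**Figure D3:**
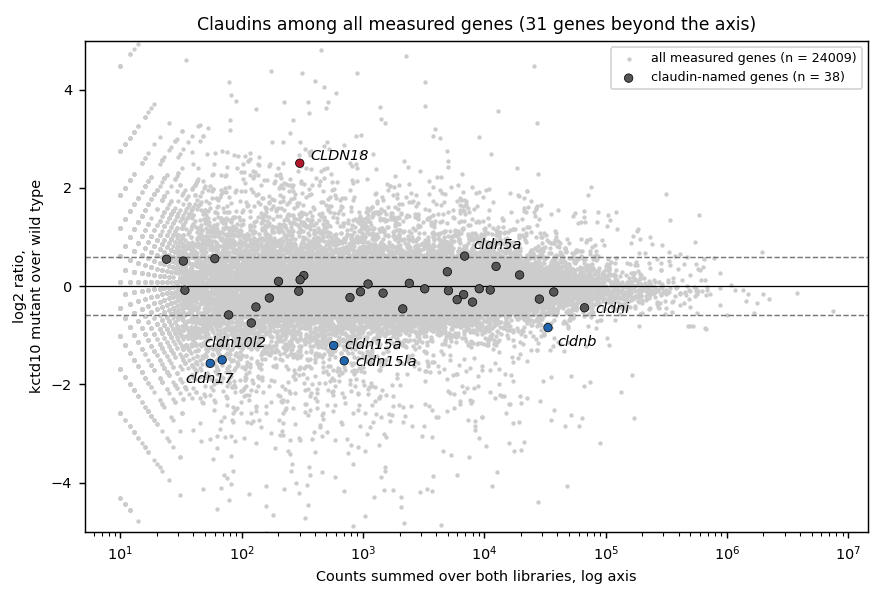
Log2 ratio, library labelled kctd10 mutant over library labelled wild type, against counts summed over both libraries (log axis) for 24009 measured genes (grey) and the 38 claudin-named genes (outlined; red higher, blue lower, dark grey neither), with dashed lines at 1.5-fold. Of the called claudins only cldnb has over 1000 counts, and 31 genes lie beyond the axis.

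Claudins numbered like mammalian sealing claudins (1, 3 to 9, 11, 14, 18 and 19) gave 11 genes, with a median log2 ratio of −0.08. Among them CLDN18 was higher (9.09%, beside 6.03% of all measured genes) and 0 were lower (beside 6.66%). The endothelial type is claudin 5, which closes the vessels of the mammalian brain. cldn5a (ENSDARG00000043716), a gene of the barrier around the zebrafish brain ventricles, had 4067 counts (29.0 CPM) in the library labelled mutant and 2817 counts (18.9 CPM) in the library labelled wild type. Its ratio of 1.53 (1.46 to 1.61) lay beyond 1.5-fold, but its interval did not. Its ratio became 1.67 and 1.73, and passed as higher, when scaled on the larval skin or general epithelial genes, and 1.12 when scaled on the cardiac sarcomere genes. It was not called with the other library scalings run.

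Its duplicate cldn5b (ENSDARG00000014059), known from zebrafish blood vessels, had 5290 counts (37.7 CPM) in the library labelled mutant and 5915 counts (39.8 CPM) in that labelled wild type. The ratio was 0.947 (0.913 to 0.983). The ratio of cldn5a was thus 1.61 times that of cldn5b (1.52 to 1.72), a split beyond counting error. Of 30 endothelial and endocardial genes 1 was higher (3.33%) and 5 lower (16.7%), beside 6.03% and 6.66% of all measured genes. Their summed level was 1057 CPM in the library labelled mutant and 1058 CPM in the library labelled wild type. cdh5, which encodes the cadherin of endothelial junctions, was the higher one, with a ratio of 1.90 (1.86 to 1.94), while the receptor gene kdrl had 1.12 (1.09 to 1.15). The lower ones included klf2b (0.456), the most counted of the list, and klf2a (0.492), which encode flow-responsive transcription factors, and tek (0.559), a receptor gene. The other 2 were vwf (0.564) and aqp8a.1 (0.597). Nervous system genes had a median log2 ratio of −0.44 and summed levels of 3325 CPM (mutant) and 4416 CPM (wild type). Of 28 measured, 3 were higher (10.7%) and 5 lower (17.9%), beside 6.03% and 6.66% of all measured genes. Lower ones included otx2 (0.402) and neurod (0.408), higher ones her4.1 (3.21) and foxg1a (1.91), all regulators of neural development. The part of brain tissue in the ratio of cldn5a was not tested.

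The claudin 11 duplicates, named after a claudin of central myelin in mammals, also parted. cldn11b had 2661 (mutant) and 2300 (wild type) counts, with a ratio of 1.23 (1.16 to 1.297). cldn11a had 3081 (mutant) and 3676 (wild type) counts, giving 0.888 (0.846 to 0.932). The first ratio was 1.38 times the second (1.28 to 1.49). cldnk, a zebrafish gene of myelinating glia, had 348 (mutant) and 433 (wild type) counts (0.851, 0.737 to 0.983). cldn19, whose mammalian counterpart acts in the kidney and in Schwann cells, had 675 (mutant) and 789 (wild type) counts (0.906, 0.817 to 1.01). None of these 4 reached 1.5-fold. Of 18 measured myelin and neural crest genes 0 were higher (beside 6.03% of all measured genes) and 5 lower (27.8%, beside 6.66%). The 5 were the regulator genes olig1 (0.315), olig2 (0.423) and egr2b (0.427) and the pigment cell genes pnp4a (0.440) and ltk (0.491). The myelin protein genes plp1a (1.26), mbpb (1.11) and mpz (1.14) had ratios above 1, and pmela, a pigment gene and the most counted of the list, 0.872.

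The lower counted duplicate cldn7a had 35 (mutant) and 25 (wild type) counts, with a ratio of 1.48 (0.863 to 2.59), too few to tell it from cldn7b. CLDN4 (5 of 9) had 1537 (mutant) and 1690 (wild type) counts and a ratio of 0.963 (0.899 to 1.03), and CLDN4 (2 of 9) had 54 (mutant) and 77 (wild type) counts and 0.743 (0.515 to 1.07). Both intervals included 1.

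Of the 5 numbered claudins placed in neither class, 0 were called, beside 6.03% of all measured genes higher and 6.66% lower. cldn12 (ENSDARG00000003927) stood highest, with 6945 counts (49.5 CPM) in the library labelled mutant and 5565 counts (37.4 CPM) in that labelled wild type, a ratio of 1.32 (1.28 to 1.37). CLDN23 (2 of 2), with 2379 (mutant) and 2686 (wild type) counts, had a ratio of 0.938 (0.888 to 0.992). CLDN22 had 170 (mutant) and 155 (wild type) counts, CLDN20 (2 of 2) had 138 (mutant) and 157 (wild type) counts and CLDN23 (1 of 2) had 75 (mutant) and 94 (wild type) counts. The intervals of these 3 included 1. Of the related CLDND1 genes, CLDND1 (1 of 2) had 4334 (mutant) and 4760 (wild type) counts and a ratio of 0.965 (0.925 to 1.01). CLDND1 (2 of 2) had 865 (mutant) and 1263 (wild type) counts and a ratio of 0.726 (0.665 to 0.792).

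Several claudins sit side by side on a chromosome, which allowed neighbours to be compared. In the GRCz12tu annotation of RefSeq, 33 of the 38 genes could be matched by name, and 13 of them belong to runs of claudin genes. On chromosome 21 the order is cldnh, cldnc, cldnb, CLDN4 (2 of 9), cldnd, cldn28, which has no row used here, and CLDN4 (5 of 9), with no other coding gene between them. cldnb alone among them was called, as lower, beside 6.66% of all measured genes lower and 6.03% higher. Few counts limited cldnd, with 33 in all, and CLDN4 (2 of 9), with 131. Their intervals ran from 0.683 to 3.10 and from 0.515 to 1.07. The nearest neighbours of cldnb were cldnc, with 444 (mutant) and 509 (wild type) counts and a ratio of 0.924 (0.812 to 1.05), and CLDN4 (2 of 9). cldnh (ENSDARG00000069503) had 10266 counts (73.2 CPM) in the library labelled mutant and 9285 counts (62.5 CPM) in the library labelled wild type, a ratio of 1.17 (1.14 to 1.21). The ratio of cldnb was 0.476 times that of cldnh (0.459 to 0.493), so members of 1 run differed from each other on any scaling.

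On chromosome 15 the run cldnj, cldne, cldnf and cldna showed no called gene, beside 6.03% of all measured genes higher and 6.66% lower. cldnj, needed for normal ear stones in zebrafish, had 101 (mutant) and 100 (wild type) counts and a ratio of 1.07 (0.803 to 1.43). The ratios of the inner genes, cldne and cldnf, lay within each other's intervals, and the intervals of both outer genes included 1. Elsewhere on chromosome 15, cldn17 lies beside the gene listed as zgc:110333, now cldn8.2, which had 4711 (mutant) and 4915 (wild type) counts and a ratio of 1.02 (0.975 to 1.06).

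**Figure D4:**
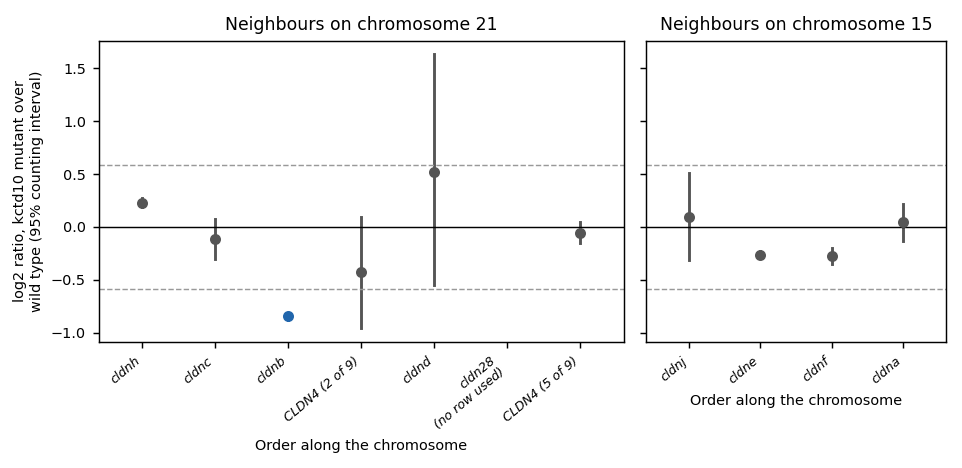
Log2 ratio, library labelled kctd10 mutant over library labelled wild type, of neighbouring claudin genes in their order on chromosomes 21 and 15 of the RefSeq annotation, with 95% counting intervals and dashed lines at 1.5-fold. On chromosome 21 cldnb (blue) lies below the lower line while cldnh lies above 0, and on chromosome 15 cldne and cldnf lie together.

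The 3 claudins whose ratio lay beyond 1.5-fold without a call were cldn5a, cldn15lb and cldng. cldng had 43 counts in the library labelled mutant and 77 in the library labelled wild type (0.592, 0.398 to 0.870). cldnd had 19 (mutant) and 14 (wild type) counts and an interval from 0.683 to 3.10. Just inside the limit, on the higher side, stood cldn7a and cldn10, each with a ratio of 1.48.

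Another 4 listed genes bear claudin names in current tables but not in the authors' and are outside the 38. Of these 0 were called, beside 6.03% of all measured genes higher and 6.66% lower. Among them si:ch211-181l5.2, now cldn10d, had 20 counts in the library labelled mutant and 6 in the one labelled wild type (ratio 3.53, 1.37 to 10.7). A fold for 18 of the 38 stands in the authors' deposited UniGene table, and all 18 lie on the same side of 1 as the ratios given here. The series holds only 2 libraries, so neither the UniGene folds nor the authors' folds from DESeq are taken as independent support. That table speaks of mutant and wild type in its first line, and what OE and CON stand for is not stated there.

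Partners of claudins in the tight junction were called both ways, more often higher than lower. Of 48 measured genes of the other tight junction list, which holds scaffold, adhesion and polarity genes, 5 were higher (10.4%, beside 6.03% of all measured genes) and 1 lower (2.08%, beside 6.66%), with a median log2 ratio of 0.07. tjp1b, listed as TJP1 (2 of 2) and encoding a ZO-1 scaffold that anchors claudins to actin, had 25927 counts (185 CPM) in the library labelled mutant and 12962 counts (87.2 CPM) in that labelled wild type, a ratio of 2.12 (2.08 to 2.16). Its duplicate tjp1a, most counted of the list, came to 1.252 (1.23 to 1.27). The ZO-2 scaffold gene tjp2a was the lower one, with 7986 (mutant) and 13652 (wild type) counts and a ratio of 0.620 (0.603 to 0.637). jam2b, encoding a junctional adhesion molecule, had 3642 (mutant) and 1360 (wild type) counts (2.84, 2.67 to 3.02), and the apical polarity gene crb2b had 2138 (mutant) and 1072 (wild type) counts (2.11, 1.962 to 2.28). The occludin genes, whose products join claudins in the strands, lay near 1, with 0.867 (0.841 to 0.894) for oclna and 1.08 (1.04 to 1.12) for oclnb. The difference between the claudins and these partners was not tested.

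Genes of related membrane-spanning proteins, among them the PMP22, LIM2 and calcium channel gamma families, were called both ways. Of 24 measured, 4 were higher (16.7%) and 5 lower (20.8%), beside 6.03% and 6.66% of all measured genes. Their median log2 ratio was −0.18. The lens fibre genes lim2.3 (ratio 4.03), lim2.1 (3.33) and lim2.4 (2.88) led the higher ones, while lim2.5 had 1.32 without a call and lim2.2 had 0.613 (0.413 to 0.901). Lower ones included emp1 (0.373), cacng7a (0.353) and cacng3b (0.527), and the most counted gene, perp, had 0.992. The 27 lens and inner ear genes had a summed level of 2722 CPM in the library labelled mutant and 1231 CPM in the library labelled wild type. Of them 0 were lower (beside 6.66% of all measured genes) and 11 higher (40.7%, beside 6.03%). They were led by cx44.1 (5.35), mipa (4.91) and mipb (2.98), genes of lens channels, and the most counted was the crystallin gene crybb1 (2.83). The part of lens tissue in the ratios of lim2.3, lim2.1 and lim2.4 was not tested. CLDN18 was the only claudin with a ratio above 1.53.

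**Figure D5:**
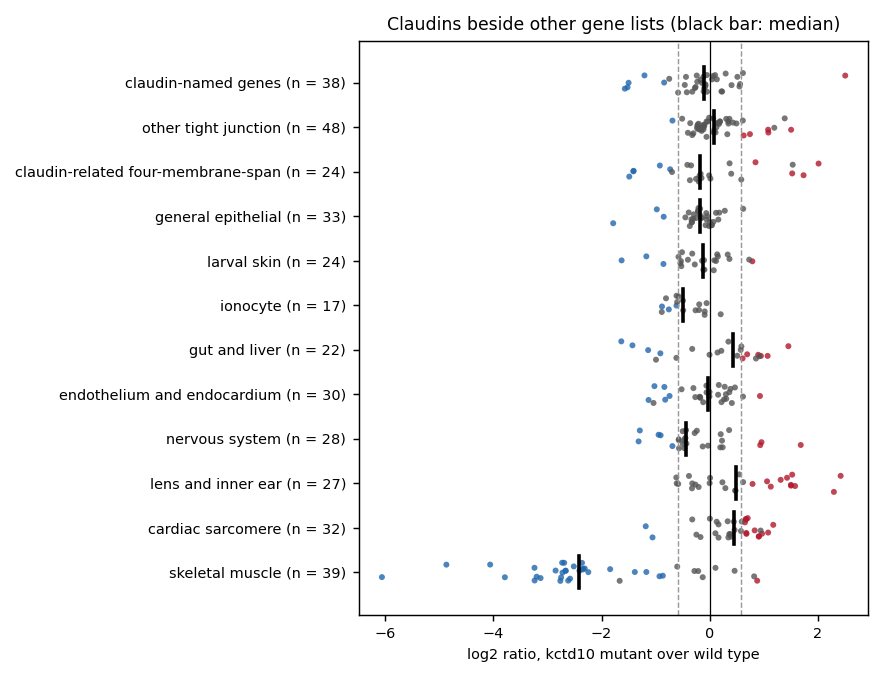
Log2 ratio, library labelled kctd10 mutant over library labelled wild type, of every measured member of the claudin-named genes and of 11 other lists (red higher, blue lower, grey neither), with a black bar at each median and dashed lines at 1.5-fold. With the TMM scaling used, the claudin median of −0.11 lies near those of the larval skin (−0.13) and general epithelial (−0.18) genes. The medians of the claudin-related (−0.18) and endothelium and endocardium (−0.03) genes are about as near as the general epithelial one. Farther off lie those of the ionocyte (−0.50), other tight junction (0.07), skeletal muscle (−2.41) and lens and inner ear (0.48) genes.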

How the data were processed

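RNA of embryonic hearts was sequenced, 1 library per genotype, on TruSeq libraries per the labels' protocols. Per the submitters' processing notes, reads were handled with TopHat and DESeq on build Zv9. Which tool counted reads, on which annotation and with what strand setting, is not stated there or in the labels. Raw counts for Ensembl genes were deposited by the authors. The row that names no gene held 9.17% of counts in the library labelled mutant and 9.21% in that labelled wild type and was left out. The authors' deposited tables also give a ratio (fold), its log2 value and, from DESeq, a p-value and adjusted p-value. Another 6 columns of per-library values bear names that match no label and were left aside.

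Library sizes were scaled by TMM (edgeR 4.0.16, R 4.3.3) over genes with at least 10 counts, giving 140343348 and 148672835 effective counts for the libraries labelled mutant and wild type. Exact 95% Clopper-Pearson intervals (SciPy 1.17.1) came from both counts, and log2 ratios added 0.5 to each count. Intervals between 2 genes used the log-normal approximation. The exact conditional one replaced it only where a count was under 100 and none reached 1000, as for cldn15la and cldn15lb. The ratios, their intervals and the calls were tested on simulated counts with known folds, while the scaling, the intervals between 2 genes and the matching of names were not. Since edgeR's test needs replicates, none was run.

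Members and lists were chosen with earlier results of these data known. Of 462 list entries 414 matched a gene. Named genes are all called claudins, the 8 most counted, those beyond 1.5-fold without a call, and, of each other list, at most 3 higher, 3 lower and the most counted member, though not every list is described by them. The genes vil1, fabp2, apoa1a, apoa1b, gcga, ins, epcam, cdh1, krt8, kdrl, vwf, aqp8a.1, oclna, oclnb, egr2b, ltk, plp1a, mbpb, mpz, lim2.2, lim2.5, the claudin pairs compared and the less counted claudins given singly were chosen after their values were seen. Alternatives were other scalings (DESeq2 1.42.0 among them), minimums, folds, intervals and member sets. No genome was used, and no coordinates are given.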

Additional observations from a re-analysis of the deposited data

How the results depend on the processing

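The claudins called were CLDN18 as higher and cldnb, cldn15la, cldn15a, cldn10l2 and cldn17 as lower. The same 6 were called with DESeq2 size factors, library totals, upper-quartile factors and TMM without the 100 most counted genes. The authors' folds gave them too, but shift every log2 ratio by −0.0052 as the DESeq2 size factors do, so they are no separate check. The same 6 also stood with a minimum of 50 counts, no minimum, copies left out, 4 genes with current claudin names added, and the CLDND1 genes left out. The last was chosen after seeing the data. These changes of minimum or members could not remove any of the 6. Each gene is called by itself, all 6 have over 50 counts, and none is a numbered copy or a CLDND1 gene. Under all settings named so far and the mean, the centre of the log2 ratios ranged from −0.14 to −0.08. Relative to the cardiac sarcomere list, which shifts every log2 ratio by −0.45, 11 claudins were lower (22.6% of all genes) and their median was −0.56. Relative to the larval skin list (shift 0.13) and the general epithelial list (0.18) the median turned to 0.022 and 0.071, 2 claudins were higher (8.15% and 9.38% of all genes) and 4 and 3 lower (4.96% and 4.42%). The share of higher genes among all called was 9.83%, 62.1% and 68.0% under these, against 47.5%. Under every one of these scalings the claudin median stayed 0.11 below that of all genes, since a shift moves both. At 2-fold 1 was higher and 1 lower (2.64% and 2.82% of all genes), with the limit lowered to a 5 to 4 ratio 3 were higher and 7 lower (12.1% and 12.8%), and with 99% intervals 1 was higher and 3 lower (5.16% and 5.6%). No called claudin changed direction, but no shift tried could have changed one. The largest was −0.45, and the called log2 ratio nearest to no change was −0.84, for cldnb. No paired analysis was possible because each genotype has 1 library, which also leaves no replicate to leave out. Counts limit the 7 claudins under 100 counts most.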
